A study of Homo sapiens with 16 samples.

Results

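Islet endocrine cells arise from pancreatic progenitors that switch on NEUROG3, the basic helix-loop-helix factor that commits them to the endocrine lineage, and a series of further transcription factors then carries the cells towards hormone production. The 8 genes described here act downstream of or beside NEUROG3. They were taken from a list of names and make up 8 of the 35810 genes that had a transcript in the deposited tables. RFX6 and RFX3 are winged-helix factors of the regulatory factor X family, which bind the X-box motif. RFX6 is required for islet cell formation, and RFX3 is also a regulator of cilium genes. PAX6 is a paired-box factor of hormone-producing cells, and ISL1 and LMX1B are LIM-homeodomain factors. FEV is an ETS factor first known from serotonin neurons and later found in endocrine precursors, and MYT1 and ST18 are zinc finger relatives of each other, with MYT1 known to promote endocrine differentiation.

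The cells were pancreatic progenitors at day 19 of differentiation from the human embryonic stem cell line SA121, all of the genotype NGN3-GFP, a reporter of NEUROG3. Latrunculin B, a drug that sequesters actin monomers and so removes actin filaments, was given at 0.5 µM for 3, 6, 12 or 24 h (LatB groups). Controls were taken at 0 h, which the design text places before treatment although the treatment label reads DMSO, and after 24 h of the vehicle DMSO. There were 3 libraries each of control 0 h, LatB 3 h, LatB 6 h and LatB 24 h, and 2 each of control 24 h and LatB 12 h, 16 in all. The samples came from 1 cell line, and the labels did not say whether libraries of a group came from separate cultures, so p-values measure the spread between these libraries only. There were no vehicle libraries at 3, 6 or 12 h, so drug and time in culture cannot be told apart there. The LatB 3, 6 and 12 h groups shared the control 0 h libraries.

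Each library held 23609727 to 33515398 estimated reads, and the progenitor genes PDX1, NKX6-1, SOX9, GP2, GATA4, GATA6, FOXA2 and ONECUT1 were expressed in all groups. Levels are given as CPM, the count of a gene scaled to a common library size. PTF1A, a gene of multipotent progenitors and acinar cells, did not exceed 0.732 CPM in any library. Of 11 neural markers, at least 2 had no read in any library of a group, and nearly all of their summed level was DCX, which was 32.1 CPM or lower in LatB 3 h and up to 166 CPM in LatB 12 h. LatB 12 h replicate 2 stood apart. The sum over 6 mesenchyme markers was 793 CPM there and 63.9 to 193 CPM in the other 15 libraries, with COL3A1 at 684 CPM against 28.5 to 152 CPM in LatB 24 h. The same library was also apart in the sums of liver markers (1503 CPM against 523 to 904), progenitor markers (2094 against 2743 to 3682) and intestine markers (105 against 169 to 258). The 12 h results it changed are given with and without it. In bulk RNA, more cells of a type and more RNA per cell cannot be told apart.

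The start regions of the members were searched for the letters CAGATG and CATATG, E-box sequences of the kind bound by NEUROG3 and NEUROD1, and GTTGCC, part of the X-box, on both strands. CAGATG and CATATG share the E-box form CANNTG, and CATATG reads the same on both strands. No match found in a member window overlapped another. RefSeq start windows (GRCh38.p14, 250 bases before to 50 after each start) were found for 6 members, 15 windows in all, of which 9 belonged to PAX6. The tables used held no window for RFX6 or ST18. The stretches are shown because they are the only places upstream of a listed member start that held these letters. All are written 5′ to 3′ on the strand of the gene, with the match in capitals.

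ISL1, chr5:51383202-51383231, match 234 bases before the start: agccccgagcaaGTTGCCtcgggagcccta
PAX6, chr11:31807077-31807106, match 169 bases before one start: agacttctgtggCAGATGccgctgaaaatg
PAX6, chr11:31800791-31800820, match 147 bases before another start: agcgaaaagcaaCAGATGggcgcagacggc
PAX6, chr11:31800688-31800717, reverse match to GTTGCC 44 bases before the same start: cttcggtgccagGGCAACctacgcaaggta
PAX6, chr11:31805062-31805091, match 38 bases before a further start: ccaaattgacacCATATGttttcctattag

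Across all 35116 windows, CAGATG occurred in 14.7%, CATATG in 3.04% and GTTGCC in 12.2%. CAGATG and CATATG occurred in 2 of the 15 member windows each, all of them of PAX6, and GTTGCC in 2 windows, 1 of ISL1 and 1 of PAX6. PAX6 also held CAGATG 25 bases after a start and CATATG 3 bases after a start. The windows of RFX3, FEV, MYT1 and LMX1B held none of the 3 sequences. PAX6 had more windows than any other member, and these matches describe letters only.

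The 8 genes differed widely in level. On the TPM scale, which corrects for transcript length, control 0 h cells held RFX3 at 9.57 ± 0.67 (SD, n = 3), RFX6 at 4.05 ± 0.23 and LMX1B at 1.75 to 2.49, and the ranges of these 3 genes did not overlap. The other 5 were below 1.04 TPM in every control 0 h library. Their group means ran from ISL1 at 0.807 through MYT1 at 0.506, PAX6 at 0.494 and ST18 at 0.272 to FEV at 0.209 TPM, and the ranges of neighbours in that order overlapped. After 24 h of latrunculin B the order of the means was RFX6 at 14.7 ± 3.4, RFX3 at 11.2 ± 0.30, LMX1B at 5.80 ± 1.02, ISL1 at 1.62 ± 0.50, FEV at 1.25 ± 0.55, PAX6 at 1.18 ± 0.47, ST18 at 0.478 ± 0.081 and MYT1 at 0.362 ± 0.104 TPM (SD, n = 3). RFX6 and RFX3 overlapped at 24 h, since the lowest RFX6 library, at 10.96 TPM, was below all but the lowest RFX3 library, at 10.9 TPM, and ISL1, FEV and PAX6 overlapped with each other. RFX6, RFX3 and LMX1B rested on 122 to 1679 estimated reads per library. The remaining genes rested on 0 to 110 reads. MYT1 was lower in mean TPM in LatB 24 h than in control 0 h but higher in mean CPM (1.27 against 0.790). Its highest control 0 h level, 0.910 TPM in replicate 1, rested on 12 reads.

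**Figure D1:**
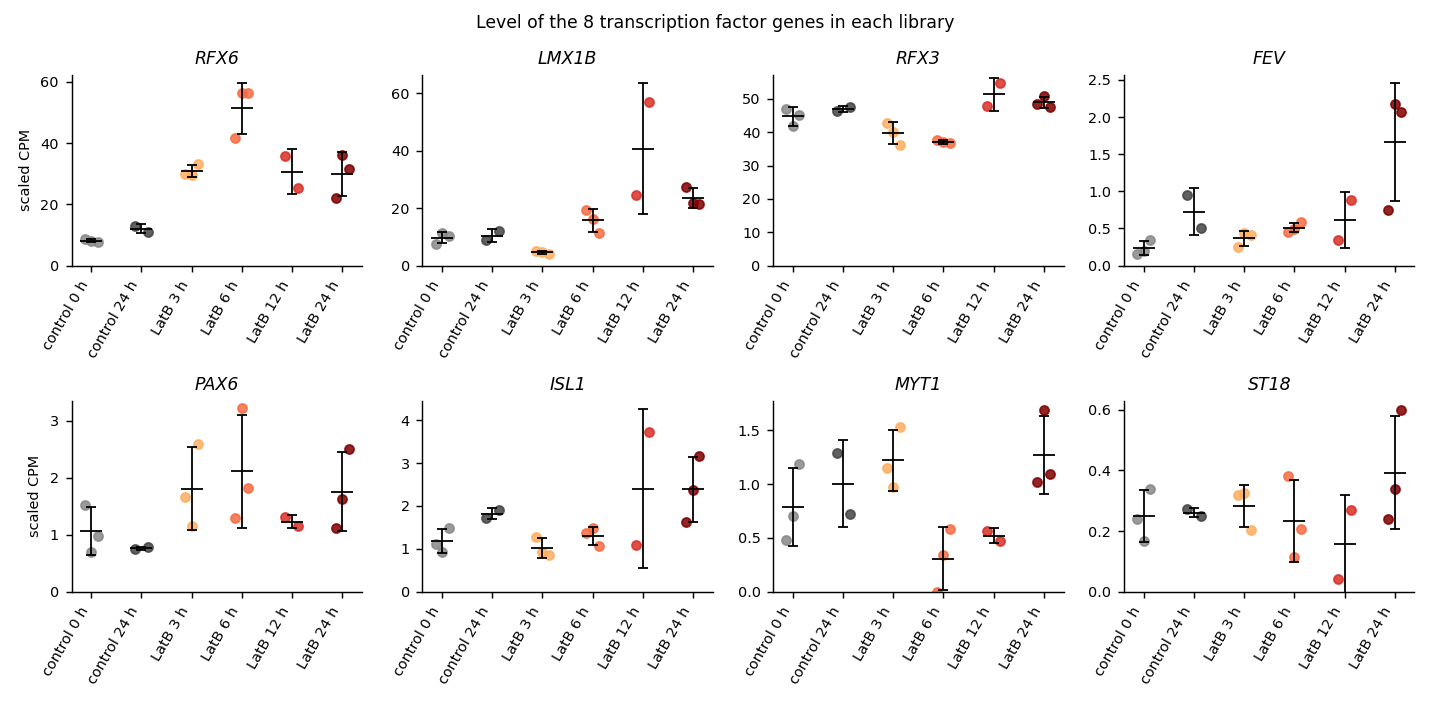
Scaled CPM of each gene in every library (points), by group, with the group mean and SD (bars; n = 3, or 2 for control 24 h and LatB 12 h). RFX6 lay at 7.72 to 12.98 CPM in the 5 control libraries and at 21.9 CPM or higher in all 11 LatB libraries, while the axes of FEV, PAX6, ISL1, MYT1 and ST18 end below 5 CPM.

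RFX6 (chr6:116877212-116932161, plus strand, GRCh38) showed the clearest response. It was 8.57, 8.14 and 7.72 CPM in the control 0 h libraries and 29.9, 29.5 and 33.2 CPM after 3 h of latrunculin B. After 6 h it stood at 41.6, 56.2 and 56.2 CPM. It was 35.8 and 25.4 CPM after 12 h and 21.9, 36.1 and 31.5 CPM after 24 h, against 12.98 and 10.9 CPM in the 24 h vehicle libraries. No LatB library overlapped with a control library at any time.

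In the edgeR quasi-likelihood fit over all 16 libraries with Benjamini-Hochberg adjustment, which tested 16705 genes and in which all 8 members passed the filter on low counts, RFX6 rose 3.79-fold at 3 h (log2 difference 1.92, SE 0.19, adjusted p = 6.39e-06). It rose 6.30-fold at 6 h (2.66, SE 0.19, adjusted p = 3.21e-07), 3.75-fold at 12 h (1.91, SE 0.20, adjusted p = 1.42e-05) and 2.50-fold at 24 h against vehicle (1.32, SE 0.21, adjusted p = 0.000253). The step from 3 to 6 h was itself a rise (0.73, SE 0.17, adjusted p = 0.00812) and the step from 6 to 12 h a fall (-0.75, SE 0.20, adjusted p = 0.0118), although the fall was no longer called without LatB 12 h replicate 2 (-0.52, adjusted p = 0.14). Without that library the 12 h rise against control was 2.14 (SE 0.22) and still called. Between 12 and 24 h RFX6 differed by -0.03 (SE 0.19, adjusted p = 0.935). The effect at 24 h minus that at 3 h was -0.60 (SE 0.27, adjusted p = 0.12), which did not pass the threshold. Vehicle for 24 h against 0 h gave 0.55 (SE 0.21, adjusted p = 0.428), although the control groups did not overlap. RFX6 is among the genes the study itself picked in part from these libraries, so its rise at 6 h is not independent evidence. The 3 and 12 h comparisons used the same control 0 h libraries. All 8 members were chosen with earlier results of these data known, so the other times are not independent evidence either.

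The RFX6 reads came from a single kind of transcript. RFX6-201 took 96.2% of the gene's reads over all libraries, and its share of the gene's TPM was between 86.6% and 94.6% in every library, with most of the remainder in a retained-intron transcript. The genes whose log2 CPM followed RFX6 most closely over the 16 libraries, among 12607 genes of sufficient level, were ZBTB2 (r = 0.968), CCNJL (r = 0.968) and FOXA3 (r = 0.965). The points share libraries and treatment groups, so these values are a description. FOXA3, an endoderm forkhead factor that the study also picked in part from these libraries, went from 24.3 to 25.5 CPM in control 0 h to 86.1 to 91.7 CPM in LatB 6 h, its highest group as for RFX6, and was 49.2 to 60.5 CPM in LatB 24 h. The correlation of RFX6 with NEUROG3 was 0.452.

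NEUROG3, the commitment factor upstream in the textbook order, followed another course. It was 0.438 to 1.36 CPM in control 0 h, 0.799 to 1.48 CPM after 3 h, 3.27 to 4.23 CPM after 6 h, 8.62 and 13.9 CPM after 12 h and 25.6 to 59.8 CPM after 24 h. Its difference at 3 h was 0.46 (SE 0.49, adjusted p = 0.52 by edgeR), so RFX6 passed the threshold at 3 h and NEUROG3 did not, with no test between the genes. NEUROG3 rose further from 12 to 24 h (1.99, SE 0.36, adjusted p = 0.00544, and 2.38 without LatB 12 h replicate 2), a step at which no member was called, where 11.7% of all tested genes were.

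**Figure D2:**
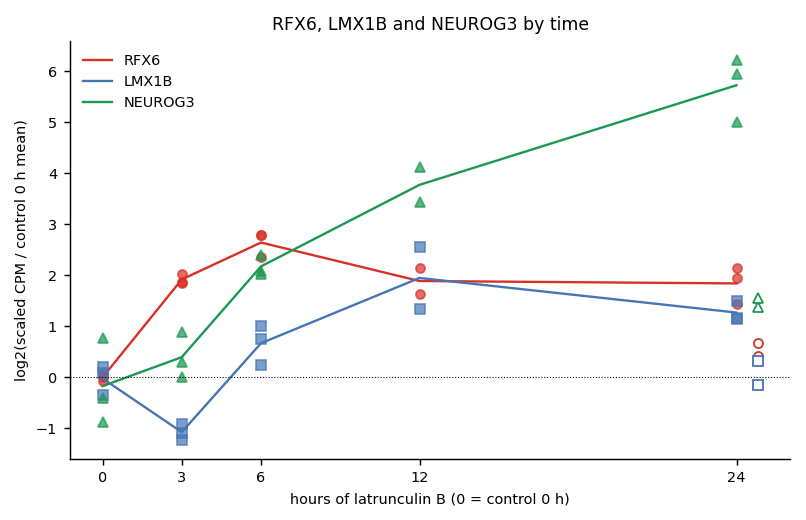
Level of RFX6 (circles), LMX1B (squares) and NEUROG3 (triangles) as log2 of scaled CPM over the control 0 h mean, against hours of latrunculin B, with a point for each library, lines through the group means and open symbols for the 24 h vehicle libraries drawn just right of 24 h. RFX6 was highest at 6 h, LMX1B fell below its control at 3 h before it rose, and NEUROG3 climbed to 24 h.

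LMX1B (chr9:126613928-126701032, plus strand), a LIM-homeodomain factor of limb, kidney and serotonin neurons that is also reported in endocrine precursors, moved first down and then up. Its control 0 h libraries were at 7.57, 11.2 and 10.2 CPM. At 3 h the LatB libraries were at 5.15, 4.55 and 4.16 CPM, all below the controls. At 6 h they were at 19.5, 16.3 and 11.4 CPM, all above. At 12 h they were at 24.5 and 56.8 CPM. At 24 h they were at 27.4, 21.6 and 21.4 CPM, against 8.74 and 12.1 CPM in vehicle, again without overlap.

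LMX1B fell at 3 h (log2 difference -1.07, SE 0.30, adjusted p = 0.0149), a level 0.478 times that of control. At 6 h the difference was 0.70 (SE 0.28, adjusted p = 0.0582), which DESeq2 called (adjusted p = 0.0301). It rose at 12 h (2.07, SE 0.30, adjusted p = 0.000165) and at 24 h (1.17, SE 0.31, adjusted p = 0.00944). The effect at 24 h exceeded that at 3 h by 2.23 (SE 0.43, adjusted p = 0.00211), the only such difference among the 8 members, where 27.9% of all tested genes were called. The step from 3 to 6 h was a rise of 1.77 (SE 0.30, adjusted p = 0.00103) and that from 6 to 12 h a rise of 1.37 (SE 0.29, adjusted p = 0.00403).

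The fall at 3 h was no longer called without control 0 h replicate 2 (-0.96, adjusted p = 0.0554) or without LatB 3 h replicate 3 (-1.01, adjusted p = 0.0529), and the rise at 24 h was not called without control 24 h replicate 1 (0.95, adjusted p = 0.11). Without LatB 12 h replicate 2, the library with high mesenchyme markers, LMX1B still rose at 12 h (1.34, adjusted p = 0.00186), but the step from 6 to 12 h was no longer called (0.63, adjusted p = 0.124). Across the other libraries the highest LMX1B level was 27.4 CPM, in LatB 24 h replicate 1, which also had the next highest mesenchyme sum, 193 CPM. LatB 24 h replicates 2 and 3 had 63.9 and 108 CPM of mesenchyme markers and 21.6 and 21.4 CPM of LMX1B. The sum of the 11 neural markers, nearly all DCX, was 37.4 to 43.5 CPM in control 0 h, 27.6 to 36.2 at 3 h, 70.1 to 87.4 at 6 h, 115 and 173 at 12 h and 65.2 to 80.1 at 24 h, and so moved with LMX1B from group to group. The part of either marker list in the LMX1B values was not tested.

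**Figure D3:**
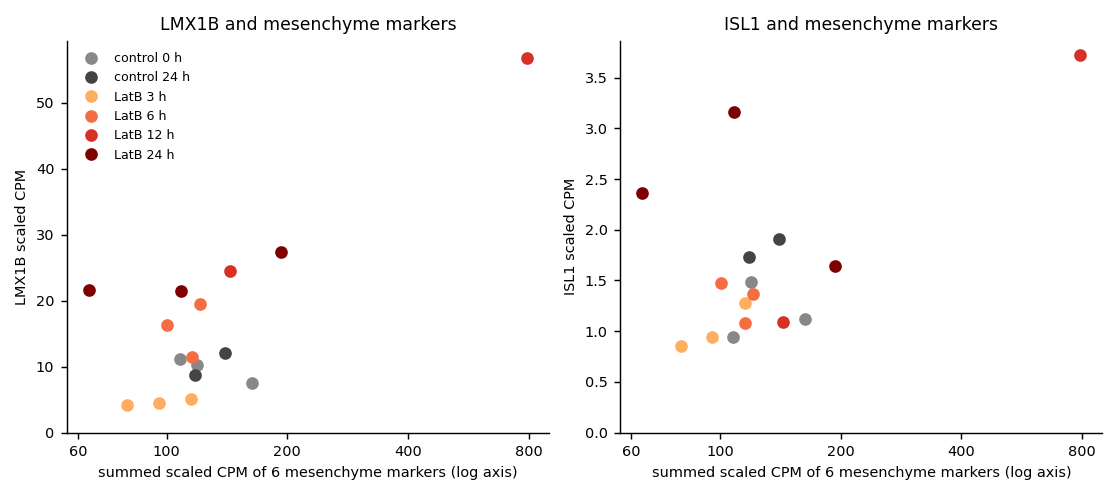
LMX1B (left) and ISL1 (right) in scaled CPM against the summed scaled CPM of 6 mesenchyme markers (log axis), a point for each of the 16 libraries coloured by group. LatB 12 h replicate 2 lies alone at 793 CPM of markers with LMX1B at 56.8 and ISL1 at 3.72 CPM, while the LatB 24 h libraries are above the controls in LMX1B at 63.9 to 193 CPM of markers.

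Reads of LMX1B were divided between LMX1B-202 and LMX1B-201, which held 31.7% and 68.3% of them in control 0 h, 76.1% and 23.9% in control 24 h and 57.5% and 39.0% in LatB 24 h. Within control 0 h the TPM share of LMX1B-202 ran from 0 to 58.1%, so the assignment varied between libraries of a group and no share was tested. The genes most like LMX1B over the libraries were PHF14 (r = 0.960), SSH2 (r = 0.955) and FOXJ1 (r = 0.950). FOXJ1, a forkhead factor of motile cilia, was 20.5 to 27.1 CPM in control 0 h, 10.9 to 14.8 CPM in LatB 3 h, 25.6 to 33.1 CPM in LatB 6 h and 41.4 and 60.5 CPM in LatB 12 h.

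RFX3 (chr9:3218297-3526004, minus strand) changed little. It was 47.1, 41.8 and 45.3 CPM in control 0 h and 42.8, 40.1 and 36.2 CPM at 3 h. The 6 h libraries lay close together at 37.7, 37.0 and 36.7 CPM, all below control. The 12 h libraries, at 47.8 and 54.9 CPM, were above control 0 h, and the 24 h libraries, at 48.4, 50.9 and 47.7 CPM, were just above the vehicle libraries, at 46.4 and 47.6 CPM. At 3 h the difference was -0.17 (SE 0.07, adjusted p = 0.0707) and at 6 h RFX3 fell (-0.27, SE 0.07, adjusted p = 0.00603). At 12 h it was 0.20 (SE 0.08, adjusted p = 0.0519), or 0.10 (adjusted p = 0.439) without LatB 12 h replicate 2, and at 24 h 0.06 (SE 0.07, adjusted p = 0.559). The step from 6 to 12 h was a rise (0.47, SE 0.08, adjusted p = 0.000602), which held without LatB 12 h replicate 2 (0.36, adjusted p = 0.0115). The fall at 6 h was not called in 3 of 17 alternatives, among them the edgeR fit with transcript length (-0.14, adjusted p = 0.23). RFX3-212 held 94.5% of the reads in control 0 h and 80.4% in LatB 12 h, where RFX3-204 held 16.4%.

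Cilium genes listed from textbook knowledge as bound by RFX factors were examined beside RFX3. Among such genes, those of intraflagellar transport and Bardet-Biedl syndrome are known RFX targets. X-boxes in the listed genes were not examined. Of 16 such genes, 8 fell at 3 h, 11 at 6 h, 5 at 12 h and 7 at 24 h, and 0, 0, 2 and 0 rose, while among all tested genes 14.7%, 20.4%, 16.8% and 18.8% fell. The median log2 difference of the list was -0.25 at 3 h and -0.35 at 6 h, against 0.00 and -0.01 over all genes. MKS1 fell by 0.64 (SE 0.08), DYNC2LI1 by 0.70 (SE 0.07) and IFT172 by 0.69 (SE 0.11) at 6 h. From 6 to 12 h 9 of the 16 rose and 0 fell, with a median of 0.31 against 0.00, while 13.9% of all genes rose. BBS9 rose by 1.11 (SE 0.19) and BBS4 by 0.61 (SE 0.10) over that step. Without LatB 12 h replicate 2 the count over that step was 4 and the median 0.14, and at 12 h 1 rose and 3 fell, with BBS9 no longer called (0.13, adjusted p = 0.459). With transcript length in the fit 5 fell at 3 h, 6 at 6 h, 1 at 12 h and 3 at 24 h, and 4 rose from 6 to 12 h, which was 2 with only the groups compared and 5 without LatB 6 h replicate 3. Without control 24 h replicate 1, 4 fell at 24 h. The shares of all genes given here are those of the main fit. RFX3 itself was called against control only at 6 h, and a link between RFX3 and these genes was not tested.

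**Figure D4:**
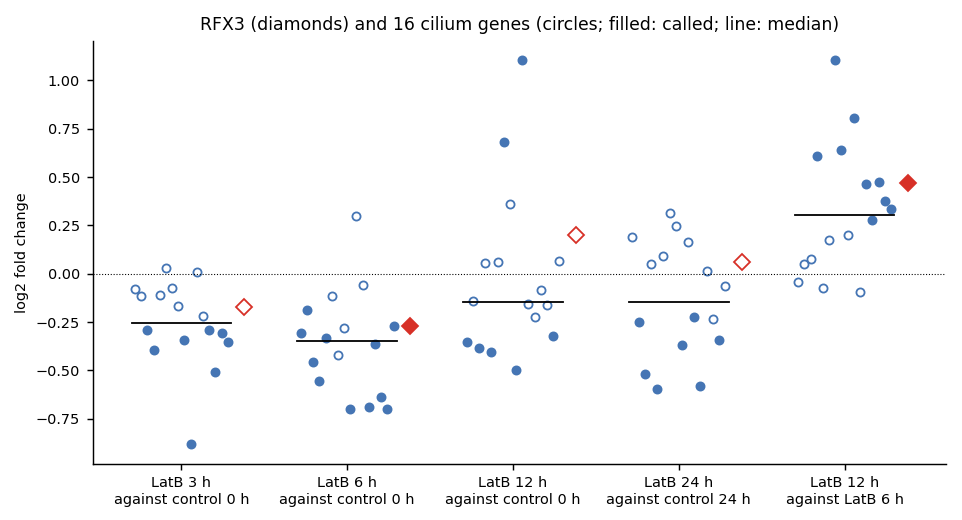
Log2 fold changes of RFX3 (diamonds) and of 16 cilium genes listed as bound by RFX factors (circles) in 5 comparisons. Symbols are filled where the edgeR adjusted p was under 0.05, and a line marks the median of the 16 genes. At 6 h 11 of the 16 and RFX3 were lower than control 0 h, and from 6 to 12 h 9 of the 16 and RFX3 were higher. RFX3 is open at 3, 12 and 24 h, when 8, 5 and 7 of the 16 were lower, with 2 higher at 12 h.

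FEV (chr2:218981087-218985184, minus strand) was scarce. It had 4, 6 and 8 reads in control 0 h (0.159, 0.201 and 0.339 CPM), 8 to 12 reads in LatB 3 h and 12 to 14 in LatB 6 h. In LatB 12 h it had 8 and 26 reads (0.350 and 0.879 CPM). After 24 h of latrunculin B it had 22, 71 and 62 reads (0.751, 2.18 and 2.06 CPM), against 28 and 16 in vehicle (0.949 and 0.501 CPM), so that LatB 24 h replicate 1 lay within the vehicle range and the other 2 libraries above it. The drug comparisons gave log2 differences of 0.65, 1.12, 1.42 and 1.20 in order of time, each with an SE between 0.49 and 0.56, and none was called (adjusted p = 0.0635 for the 12 h and 0.0666 for the 24 h comparison). Without LatB 12 h replicate 2 the 12 h value was 0.59 (adjusted p = 0.588), and without replicate 1 it was 1.91 and called (adjusted p = 0.0249). Vehicle for 24 h against 0 h gave 1.63 (SE 0.55, adjusted p = 0.333), with no overlap between the control groups.

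LatB 24 h replicate 1 was also the lowest of its group in NEUROG3, at 25.6 CPM against 59.8 and 49.5 CPM, and in RFX6. Without it FEV was called at 24 h (1.55, adjusted p = 0.0135), and against control 0 h in place of vehicle the difference was 2.83 (adjusted p = 0.000505). FEV was most like SCG2, a secretory granule protein gene (r = 0.899), ATP2A3, a calcium pump gene (r = 0.878), and NEUROG3 (r = 0.870) over the 16 libraries, which includes low counts of FEV in most of them. FEV acts in serotonin neurons, and a list of 11 serotonin genes held those of synthesis, transport and breakdown and the transcription factor genes GATA2 and GATA3. Of them 2 rose and 1 fell at 3 h, 1 rose and 1 fell at 6 h, and 2 rose (SLC18A2 and GATA3) and 1 fell at 12 h, which was 1 and 1 without LatB 12 h replicate 2. At 24 h 2 rose and 1 fell. Among all tested genes 31.6%, 43.3%, 35.8% and 40.8% were called at these times, so the list was not above the background. MAOA, which degrades serotonin, was the gene that fell each time, by 1.63 (SE 0.12) at 24 h. SLC18A1, a vesicular monoamine transporter gene, rose by 1.83 (SE 0.32) at 3 h and by 1.69 (SE 0.37) at 24 h, and DDC, which makes serotonin and dopamine, by 1.63 (SE 0.40) at 24 h.

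PAX6 (chr11:31784779-31817961, minus strand) had 21 to 85 reads a library. It was 1.51, 0.704 and 0.976 CPM in control 0 h, 1.66, 1.15 and 2.59 CPM at 3 h, 1.29, 3.22 and 1.82 CPM at 6 h and 1.31 and 1.15 CPM at 12 h. At 24 h it was 1.13, 1.63 and 2.49 CPM against 0.746 and 0.783 CPM in vehicle, without overlap. The difference at 24 h was 1.19 (SE 0.48, adjusted p = 0.0619) and at 6 h 0.99 (SE 0.41, adjusted p = 0.0681), so neither passed the threshold. Without LatB 24 h replicate 1 it was called at 24 h (1.42, adjusted p = 0.036), and without control 0 h replicate 1 or LatB 6 h replicate 1 at 6 h (adjusted p = 0.0369 and 0.0367). On the log2(TPM + 1) scale, tested with limma, PAX6 was called at 3 h (0.66, adjusted p = 0.0257) and at 6 h (0.85, adjusted p = 0.00455). On this scale low genes are compressed, which makes their differences smaller. In TPM PAX6 was 0.374 to 0.593 in control 0 h, 1.05 to 1.78 at 3 h and 1.297 to 2.01 at 6 h. Neither drug group overlapped with control in TPM, while both did in CPM. Over 16 alternatives the difference ran from 0.39 to 1.56 at 3 h, called in 3. At 6 h it ran from 0.53 to 1.91, called in 6 of 16. The gene has 81 transcripts in the tables, of which 39 held a read in some library. PAX6-230 took from 0 to 76.0% of the gene's TPM within control 0 h, and the transcript with the most reads held 12.7% of them over all libraries.

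ISL1 (chr5:51383448-51394730, plus strand), needed for islet cell maturation and also for pancreatic mesenchyme, was 1.12, 0.938 and 1.48 CPM in control 0 h, 1.28, 0.938 and 0.852 CPM at 3 h and 1.37, 1.48 and 1.08 CPM at 6 h. It was 1.64, 2.36 and 3.16 CPM in LatB 24 h and 1.73 and 1.91 CPM in vehicle, which overlap (0.39, SE 0.41, adjusted p = 0.478). At 12 h the replicates split, with 1.09 CPM (25 reads) in replicate 1 and 3.72 CPM (110 reads) in replicate 2, the library with the high mesenchyme sum. The 12 h difference was 1.05 (SE 0.42, adjusted p = 0.0648) with both, 1.66 (adjusted p = 0.0021) without replicate 1 and -0.10 (adjusted p = 0.882) without replicate 2. DCN, a stromal proteoglycan gene, was 0.787 and 8.52 CPM in the same 2 libraries and TWIST1, a mesenchymal transcription factor gene, 1.27 and 6.87 CPM. The part of these markers in the ISL1 value was not tested beyond that.

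MYT1 (chr20:64102394-64242253, plus strand) was 0.478, 0.704 and 1.19 CPM in control 0 h and 1.15, 0.974 and 1.53 CPM in LatB 3 h. In LatB 6 h it had 0, 9 and 14 reads (0, 0.341 and 0.580 CPM). A count of 0 allows up to 3 reads, or 0.106 CPM in that library, for counting error only. It was 0.569 and 0.474 CPM at 12 h and 1.02, 1.69 and 1.10 CPM at 24 h, against 1.29 and 0.720 CPM in vehicle. Every LatB 6 h library was below every LatB 3 h library, and the step was called (-1.99, SE 0.64, adjusted p = 0.0406). The call was lost on leaving out any of the 3 LatB 3 h libraries or LatB 6 h replicate 1 or 2, with adjusted p from 0.0527 to 0.115. It was also lost with the length offset (adjusted p = 0.144), with only the groups compared (0.0557) and, in limma, on the log2(TPM + 1) scale (-0.31, adjusted p = 0.254) and the log2(TPM + 0.1) scale (0.108), so that 9 of 15 alternatives did not call it. Against control 0 h the 6 h difference was -1.36 (SE 0.66, adjusted p = 0.116), with overlapping groups. ST18 (chromosome 8, minus strand) had 1 to 18 reads a library and differences from -0.55 to 0.58 in the 4 comparisons with control, none called, with SE of 0.56 to 0.68. Without LatB 12 h replicate 2 its 12 h value rested on the 1 read of replicate 1 (-2.37, SE 1.07, adjusted p = 0.115).

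Counted together, 1 member rose and 1 fell at 3 h (RFX6 and LMX1B), where 31.6% of all tested genes were called. At 6 h 1 rose and 1 fell (RFX6 and RFX3), where 43.3% were called. At 12 h 2 rose (RFX6 and LMX1B), where 35.8% were called, and at 24 h the same 2 genes rose, where 40.8% were called. A share of 2 in 8 was not above the background in any of these. In vehicle at 24 h against 0 h no member was called by edgeR, where 0.251% of genes were, and DESeq2 called none. RFX6 and FEV had an unadjusted edgeR p under 0.05 there. The share of all genes at that threshold was not counted, so it cannot be set beside them. From 3 to 6 h 3 members were called, against 22.2% of genes, and from 6 to 12 h 3, against 29.0%. The median log2 difference of the 8 members was 0.42 at 3 h, 0.43 at 6 h, 0.63 at 12 h and 0.87 at 24 h, while the median of all genes was between -0.01 and 0.01. FEV, PAX6, ISL1, MYT1 and ST18, which had few reads, entered these medians uncalled, and the medians were not tested. The 12 h median includes LatB 12 h replicate 2, without which FEV, ISL1, LMX1B, RFX3 and ST18 were lower at 12 h and RFX6 higher.

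**Figure D5:**
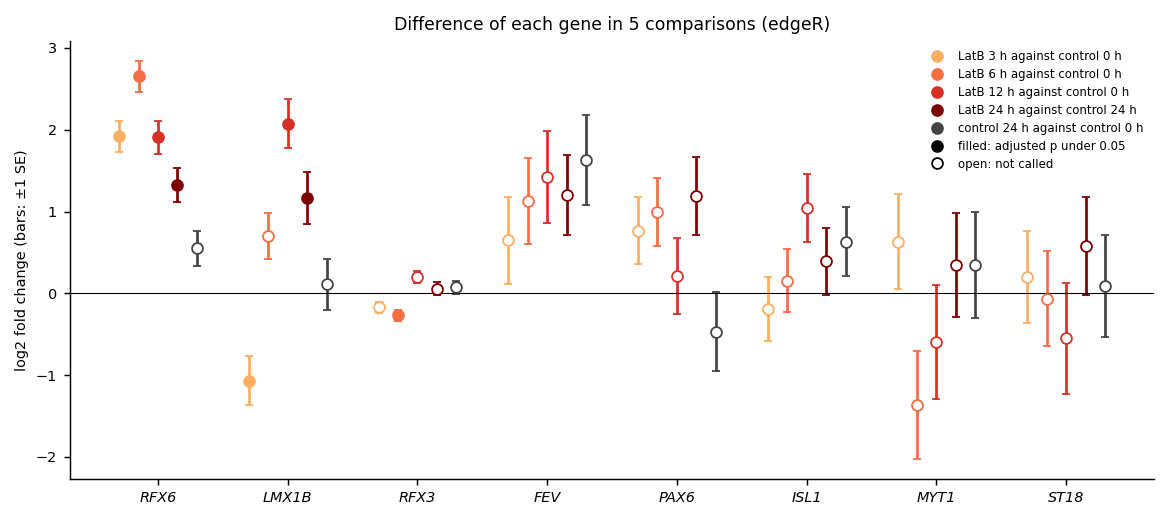
Log2 fold change of each of the 8 genes in 5 comparisons with bars of 1 SE, filled where the edgeR adjusted p was under 0.05. RFX6 is filled in all 4 drug comparisons, LMX1B is filled below 0 at 3 h and above 0 at 12 and 24 h, RFX3 is filled at 6 h only, and the other 5 genes, with SE of 0.39 or more, are open throughout.

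The 5 first commitment factors NEUROG3, NEUROD1, INSM1, NKX2-2 and PAX4 rose in all of the 6, 12 and 24 h comparisons, and at 3 h only NKX2-2 did (2.06, SE 0.44). Among all tested genes 31.6%, 43.3%, 35.8% and 40.8% were called, higher or lower, at 3, 6, 12 and 24 h. Without LatB 12 h replicate 2, 3 of the 5 rose at 12 h, and NEUROD1 (1.39, adjusted p = 0.104) and PAX4 (1.31, adjusted p = 0.135) were not called. All 5 also had a larger effect at 24 h than at 3 h, which among the members only LMX1B had, where 27.9% of all tested genes were called. Of 16 other islet lineage transcription factors, 13 could be tested. At 3 h 6 of them rose and 0 fell, at 6 h 6 rose and 0 fell, at 12 h 6 rose and 2 fell (4 and 2 without LatB 12 h replicate 2), and at 24 h 2 rose and 2 fell. With all libraries, the share called was above that of all genes at 3 and 12 h, near it at 6 h and below it at 24 h. SOX4 rose at every time, from 392 CPM in control 0 h to 770 CPM at 6 h (0.98, SE 0.05). PROX1 rose from 99.1 to 178 CPM at 6 h (0.85, SE 0.09) and SOX11 from 339 to 669 CPM (0.98, SE 0.08), and both fell from 6 to 12 h, with that library (-0.55 and -0.45) and without it (-0.83 and -0.30). GLIS3 and HHEX fell at 24 h, by 0.78 (SE 0.08) and 0.71 (SE 0.10). Of 14 relatives of the members, 9 could be tested, and RFX5, a regulator of MHC class II genes, fell at each time, by 0.56 (SE 0.07) at 6 h. RFX1 rose at 6 h by 0.30 (SE 0.06), opposite in direction to RFX3. The share of the relatives called was below that of all genes at each time.

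Of 6 islet hormone genes, SST alone rose at every time, from 11.4 CPM in control 0 h to 38.7 CPM at 3 h and 53.5 CPM at 6 h, and to 55.4 CPM at 24 h against 15.6 CPM in vehicle. GHRL rose at 6 h, INS at 12 h, at 0.855 CPM against 0.207 CPM, though not without LatB 12 h replicate 2 (1.94, adjusted p = 0.132), and PPY at 24 h, when its vehicle libraries held almost no reads. Of 16 genes of islet cell function, 15 could be tested, of which 0 rose at 3 h, 3 at 6 h, 5 at 12 h and 6 at 24 h, and 0, 2, 3 and 3 fell. Without LatB 12 h replicate 2, 2 rose and 2 fell at 12 h. The called shares were below those of all genes at 3 and 6 h (31.6% and 43.3%). At 12 h 35.8% of all genes were called, and the 9 of 15 at 24 h stand beside 40.8%. PCSK2, a prohormone convertase gene that is among the genes expressed in maturing islet cells, rose by 2.59 (SE 0.38) at 24 h, while the incretin receptor genes GLP1R and GIPR fell by 2.46 (SE 0.33) and 2.01 (SE 0.28).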

How the data were processed

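Poly(A) RNA of 16 samples was sequenced on an Illumina NextSeq 500. The deposited files hold, for each transcript, estimated counts (expected counts) and TPM from the authors' run of Salmon 1.3.0 on hg38, per the submitters' processing notes; the methods describe STAR alignment with GENCODE annotation. Effective transcript length, the other value used from the deposited files, served only for the length offset. Transcripts were matched to genes by identifier through GENCODE release 44 (GRCh38), without version, and 2.92 to 3.17% of reads had no match. Estimated counts were summed per gene and rounded. A further deposited table held the authors' own comparisons (fold changes and p-values) and 16 per-sample columns, and was not used.

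Genes were filtered with filterByExpr, leaving 16705, scaled by TMM and tested with edgeR 4.0.16 (quasi-likelihood, all 16 libraries, 1 mean per group); calls had a Benjamini-Hochberg adjusted p under 0.05. CPM values are relative to the scaled library size, and log2 CPM used a prior count of 2. The scripts were tested on simulated data. Alternatives were DESeq2 1.42.0, a length offset, unscaled libraries, scaling by RLE, all genes with a read, genes averaging 50 reads or more, a replicate block, only the groups compared, limma 3.58.1 on log2(TPM + 1) and log2(TPM + 0.1), the other control, and leaving out each library. The 8 members and the lists (commitment factors, other lineage factors, relatives, serotonin, cilium, hormone and function genes, and markers) were chosen with earlier results of these data known. The text names all members, genes of the lists (some are not reported here) and, per member, the 3 genes of highest Pearson r of log2 CPM among 12607 tested genes with a mean log2 CPM of at least 1. Transcripts with at least 10% of a gene's TPM in a group were inspected. Replicate pairs all differed beyond sampling noise. Counting limits cover counting error only.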

Additional observations from a re-analysis of the deposited data

Results flagged for a closer look

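LMX1B was the only member whose effect differed between 24 h and 3 h by a direct test (vehicle at 24 h, control 0 h at 3 h). It was lower than control at 3 h and higher than vehicle at 24 h, and the difference of the effects was 2.23 on the log2 scale (SE 0.43, adjusted p = 0.00211, edgeR), with all 3 LatB libraries below their controls at 3 h and all 3 above at 24 h. It stayed called in all 21 alternatives, from 1.72 to 2.49.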

How the results depend on the processing

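No member reversed its direction under an alternative after being called. RFX6 remained called against control at all 4 times in every alternative. With only the groups compared, members called at 6 h numbered 4 in place of 2 (adding LMX1B and FEV), where the main fit called 43.3% of all genes. At 24 h against control 0 h they numbered 4 in place of 2 (adding ISL1 and FEV), where the main share against vehicle was 40.8%. For the effect at 24 h minus that at 3 h they numbered 2 in place of 1 with no scaling (adding RFX3), where 5191 of 16705 genes were called. From 6 to 12 h with only the groups compared 1 was called in place of 3 (RFX3), where the main share was 29.0%. Other shares of all genes under the same alternative are not set beside the counts here, so none is read as above the background. Leaving out 1 library at a time gave 1 to 3 members at 3 h, 2 to 4 at 6 h, 2 to 5 at 12 h, 1 to 4 at 24 h, 0 for vehicle, 1 to 2 for the difference of effects, 2 to 3 from 3 to 6 h, 1 to 4 from 6 to 12 h and 0 to 1 from 12 to 24 h; the 5 at 12 h came without LatB 12 h replicate 1. RFX3 was called at 3 h without control 0 h replicate 2 or LatB 3 h replicate 1 (adjusted p = 0.0315 and 0.0212, edgeR), LMX1B and MYT1 at 6 h without LatB 6 h replicate 3 (0.0349 and 0.0402), and FEV and LMX1B from 12 to 24 h without LatB 24 h replicate 1 and LatB 12 h replicate 1 (0.0228 and 0.00277). The fall of LMX1B at 3 h was not called on the log2(TPM + 1) scale (-0.70, adjusted p = 0.101, limma). Where this left 1 library in a group, it was assumed to vary like the others.

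The main fit did not pair the samples by replicate number. Deviations from the group mean correlated from -0.241 to 0.116 in 36 same-numbered pairs. In a group of 2 libraries such deviations mirror each other, so pairs with control 24 h or LatB 12 h cannot show whether libraries shared a culture batch. Between the groups of 3 libraries, same-numbered pairs ran from -0.0970 to 0.116 and different-numbered pairs from -0.137 to 0.151. Whether libraries shared a culture batch was not tested. With the replicate block FEV was added at 12 h (1.55, adjusted p = 0.0432, edgeR), giving 3 members, and no other member changed its call.

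Over all genes, counts ran from 2828 to 6162 at 12 h, 4034 to 7091 at 24 h, 2 to 248 for vehicle, 2940 to 5327 for the difference of effects, 1751 to 4563 from 3 to 6 h, 1574 to 6219 from 6 to 12 h and 0 to 3713 from 12 to 24 h. At 3 h they ran from 3625 to 5739 and at 6 h from 5285 to 8055. With no scaling, 36.1% of the calls at 3 h and 37.7% at 6 h were higher, against 53.3% and 52.8%. FEV, PAX6, ISL1, MYT1 and ST18 had 0 to 110 reads a library.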
